A study of Mus musculus with 12 samples.

Results

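Macrophages and monocytes are cells of the host that enter a tumour, and the genes described here are 33 mouse genes known as markers or working parts of these cells. A gene was taken as measured where a probe set carried its symbol and no other, and where several did, the one brightest on average over the 12 arrays was used. By this rule 32 of the 33 genes were measured, of 18193 genes in the series. Ly6c2, a surface protein of inflammatory monocytes, has no probe set of its own, because the one that names it also names Ly6c1. No value is given for it.

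Total RNA of tumours of 3 mouse lung adenocarcinoma lines, 344SQ, 393LN and 393P, was measured on Affymetrix arrays, 4 per line. The lines come from animals of the genotype p53R172H∆g/+ K-rasLA1/+, heterozygous for a mutant p53 allele and for the latent K-rasLA1 allele, and all 3 lines share that genotype. 344SQ was grown out of a subcutaneous site of animal #344 and is labelled highly metastatic. 393LN came from a mediastinal lymph node of animal #393 and is labelled intermediately metastatic, and 393P came from a primary lung tumour of that same animal and is labelled non-metastatic. Each line is a mass population, passaged in RPMI medium with serum, so every line stands for 1 tissue sample of 1 animal, and the difference between 344SQ and the other lines cannot be told apart from the difference between the animals. The tumours were grown in syngeneic mice, which have the immune cells of their strain, and were cut free of neighbouring tissue and frozen. No treatment is named, and the age and number of the host mice are not given in the sources used here. Nothing says that the 4 arrays of a line came from separate mice, so the p-values below measure the spread between these arrays only.

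Blood monocytes leave the circulation, settle in tissues and become macrophages, and this step and their survival depend on signals through the receptor CSF1R. The transcription factor PU.1, the product of Spi1, directs the expression of many genes of the lineage. Mature macrophages take up debris and antibody-coated particles through scavenger, lectin and Fc receptors, digest them in lysosomes, and release complement, oxygen radicals and cytokines. They are among the most common host cells in lung adenocarcinoma, where their state can differ with the tumour.

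All levels are log2(intensity + 16) of the intensities the authors deposited, a scale on which the floor of the table lies at 4.09. For a dim probe set a difference on this scale understates the change. The levels of different genes are not comparable, since each probe set binds with its own strength. Differences are 344SQ minus the other line, or 393LN minus 393P, and were tested with limma over all 18193 genes. The words rose and fell are kept for genes with an adjusted p under 0.05. The 344SQ arrays enter both comparisons of that line, so these 2 comparisons are not independent.

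Defining markers of the lineage were present. Csf1r, Adgre1 and Cd68 were far above the floor on all 12 arrays, and 0 of the 32 measured genes lay at the floor on any array. Marco, a scavenger receptor of alveolar and marginal zone macrophages, was the dimmest, at 4.34 to 5.04 on 344SQ arrays, 4.48 to 5.31 on 393LN arrays and 4.11 to 5.19 on 393P arrays. In tumour pieces, fewer cells of a type and less RNA per cell cannot be told apart, and every difference below could be either.

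Of the 32 genes, 6 fell and 0 rose in 344SQ against 393P tumours. Among all genes tested, 5.62% fell, 4.86% rose and 10.5% changed in either direction. The 6 were Aif1, Tyrobp, Fcer1g, Clec7a, Cd14 and Nos2. The difference was negative for 29 of the 32 genes and positive for Mrc1, Cd163 and Marco, and the median was -0.59, against -0.00 over all genes tested. In 344SQ against 393LN tumours 2 genes fell, Aif1 and Tyrobp, and 1 rose, Cd163. There 6.92% of all genes fell, 3.99% rose and 10.9% changed in either direction, and the median over the 32 genes was -0.45, against -0.02 over all genes. In 393LN against 393P tumours 0 genes passed the limma test, while 2.45% of all genes passed, 1.75% as higher and 0.698% as lower. There 0 of the 32 had an unadjusted p under 0.05, against 2851 of all 18193 genes. The differences of that comparison lay between -0.48 and 0.20, with a median of -0.12. The counts turned on single arrays. Counting both directions, in 344SQ against 393P it was 2 without 344SQ replicate 3 and 3 without 344SQ replicate 2 or any one of 393P replicates 2, 3 and 4. Without 393P replicate 2 those were 2 that fell, Aif1 and Tyrobp, and 1 that rose, Mrc1. Without 344SQ replicate 1 it was 9, as Mpeg1, Pld4, Fcgr1, C1qc and Cybb passed and Cd14 and Nos2 did not. In 344SQ against 393LN the count was 7 without 344SQ replicate 1, 5 without 393LN replicate 3, and 1 without any one of 344SQ replicates 2 and 3, 393LN replicates 2 and 4 and 393P replicate 3.

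**Figure D1:**
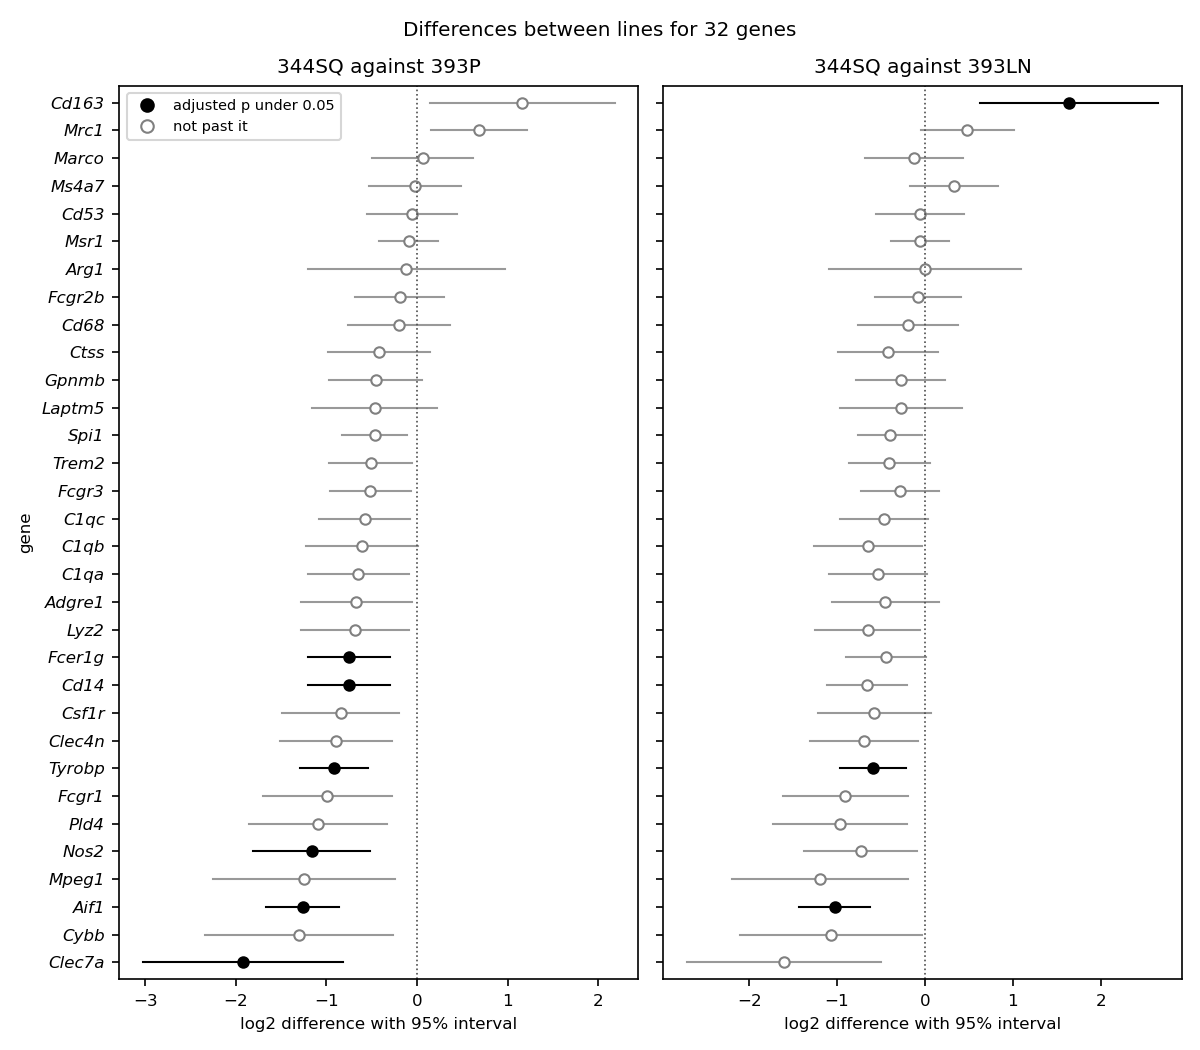
Log2 differences of each of the 32 genes with 95% intervals from the limma fit, for 344SQ against 393P (left) and 344SQ against 393LN (right). Filled points passed at an adjusted p under 0.05. Of the 32 points 29 lie left of 0 against 393P and 28 against 393LN, and Mrc1 and Cd163 lie right of it in both.

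The line means were ordered 344SQ, 393LN, 393P from low to high for 25 of the 32 genes, and 344SQ had the lowest mean for 27 of them. Among all genes tested these orders were found in 18.0% and 38.0%. The 344SQ mean was the highest for 2 genes, Mrc1 and Cd163. The place of 393LN below 393P rested on single arrays: of the 32 genes 28 had a negative difference in 393LN against 393P, against 12 without 393LN replicate 3 and 15 without 393P replicate 2. The genes share arrays and cells, so these counts are a description and no test.

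Promoters are printed for members on which the comparisons turn: Aif1, Fcer1g and Clec7a, which fell in 344SQ against 393P, and Mrc1 and Cd163, whose differences ran the other way. Each is 300 bases, 250 before and 50 after a start listed for the gene, which need not be its outermost one. The windows are read 5′ to 3′ on the strand of the gene from RefSeq on GRCm38.p6. Clec7a has 2 promoter entries, of which the first by position is printed. Capitals mark the letters GAGGAA, one form of the site bound by PU.1, or their reverse complement TTCCTC. Runs of GGAA outside these letters are left unmarked.
Aif1: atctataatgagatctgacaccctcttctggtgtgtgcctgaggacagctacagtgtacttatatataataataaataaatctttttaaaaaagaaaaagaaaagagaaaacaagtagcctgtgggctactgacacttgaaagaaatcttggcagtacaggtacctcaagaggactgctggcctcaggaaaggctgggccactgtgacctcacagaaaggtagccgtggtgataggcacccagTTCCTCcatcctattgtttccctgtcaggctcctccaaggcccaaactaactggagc
Fcer1g: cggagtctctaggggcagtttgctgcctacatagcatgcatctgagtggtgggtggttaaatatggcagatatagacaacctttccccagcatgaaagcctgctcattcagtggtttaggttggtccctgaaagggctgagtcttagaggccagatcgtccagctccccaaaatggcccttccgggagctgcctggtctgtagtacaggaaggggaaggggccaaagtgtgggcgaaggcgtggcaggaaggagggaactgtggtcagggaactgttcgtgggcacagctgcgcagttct
Clec7a: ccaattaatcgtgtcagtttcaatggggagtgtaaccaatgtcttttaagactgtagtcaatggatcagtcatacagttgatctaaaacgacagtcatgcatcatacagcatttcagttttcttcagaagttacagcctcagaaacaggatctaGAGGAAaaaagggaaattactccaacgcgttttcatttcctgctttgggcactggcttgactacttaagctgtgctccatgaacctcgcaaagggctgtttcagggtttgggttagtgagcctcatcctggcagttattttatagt
Mrc1: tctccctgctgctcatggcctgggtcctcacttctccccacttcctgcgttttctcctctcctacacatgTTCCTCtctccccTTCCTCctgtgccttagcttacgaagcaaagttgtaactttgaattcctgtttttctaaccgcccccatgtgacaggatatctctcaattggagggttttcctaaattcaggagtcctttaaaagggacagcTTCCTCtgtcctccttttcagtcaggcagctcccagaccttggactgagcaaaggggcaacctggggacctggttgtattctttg
Cd163: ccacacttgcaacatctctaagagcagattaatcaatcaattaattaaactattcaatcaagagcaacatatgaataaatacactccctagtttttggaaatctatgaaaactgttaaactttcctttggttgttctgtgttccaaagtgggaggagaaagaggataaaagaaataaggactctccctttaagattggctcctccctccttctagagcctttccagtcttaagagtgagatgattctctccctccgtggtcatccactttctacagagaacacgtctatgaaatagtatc

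The Aif1 window is chr17:35176003-35176302 on the minus strand and holds 1 match, 7 bases before the start used. The Aif1 gene is listed as reaching to base 35176083, so this match lies within its span. The Fcer1g window, chr1:171234300-171234599 on the minus strand, holds 0. The Clec7a window, chr6:129472730-129473029 on the minus strand, holds 1 match, 96 bases before the start. The Mrc1 window, chr2:14229164-14229463 on the plus strand, holds 3 matches, at 180, 167 and 35 bases before the start, and the Cd163 window, chr6:124304401-124304700 on the plus strand, holds 0. A promoter was at hand for 23 of the 33 genes, Ly6c2 among them, and 17 of these 23 (73.9%) held the letters on either strand, against 31.3% of the 27025 genes with a promoter in the same table. A match is a run of letters and is no evidence of binding. Both the printed genes that fell and those that ran the other way include windows with and without it. Tyrobp, Cd14 and Nos2, which also fell, had no promoter at hand.

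Aif1 differed most clearly of the general macrophage markers. It encodes the calcium-binding protein IBA1 of the macrophage cytoskeleton. Its levels were 8.73, 8.42, 8.48 and 7.99 on the 344SQ arrays, against 9.69, 9.54, 8.996 and 9.50 on the 393LN arrays and 9.77, 9.89, 9.61 and 9.38 on the 393P arrays. All 344SQ values lay below all values of both other lines, whose own values overlapped. Aif1 fell in 344SQ against 393P by a log2 difference of -1.26 ± 0.19 (SE, n = 4 arrays per line), 2.4-fold lower (limma adjusted p 0.00108). It fell against 393LN as well (-1.03 ± 0.19, adjusted p 0.00466), 2.04-fold lower. Both calls held without each of the 12 arrays in turn.

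Csf1r, the receptor for the growth factors CSF1 and IL-34, had levels of 11.83, 11.07, 11.60 and 10.42 on the 344SQ arrays, against 12.18, 11.73, 11.26 and 12.05 on the 393LN arrays and 11.89, 12.54, 11.99 and 11.87 on the 393P arrays. Every 344SQ value lay below every 393P value, though the brightest 344SQ array came close to the dimmest 393P array, and the 344SQ and 393LN values overlapped. The difference from 393P was -0.84 ± 0.30 and missed the threshold (adjusted p 0.0979), as did -0.57 ± 0.30 from 393LN (adjusted p 0.25). Both other probe sets of Csf1r gave negative differences too.

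Spi1, the gene of PU.1, was at 8.70 to 9.24 on 344SQ arrays, 9.01 to 9.62 on 393LN arrays and 9.17 to 9.73 on 393P arrays. It did not pass against 393P (-0.47 ± 0.17, adjusted p 0.0995), though it did with the 3′ to 5′ actin ratio of each array as a covariate (-0.52, limma adjusted p 0.0495). Adgre1, a surface protein by which mouse macrophages are commonly sorted, was at 9.02 to 10.18 on 344SQ arrays, 9.57 to 10.40 on 393LN arrays and 9.98 to 10.99 on 393P arrays, and its difference from 393P was -0.67 ± 0.28 (adjusted p 0.165). Cd68, an endosomal glycoprotein, spanned 9.74 to 10.90 on 344SQ arrays, 9.99 to 10.69 on 393LN arrays and 10.06 to 10.78 on 393P arrays, with a 95% interval of -0.76 to 0.37 for the difference from 393P. Ms4a7, a membrane protein of macrophages, was at 10.50 to 11.18 on 344SQ arrays, 9.86 to 11.02 on 393LN arrays and 10.86 to 11.10 on 393P arrays, and its interval of -0.53 to 0.48 was centred near 0.

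Mpeg1 encodes perforin-2, a pore-forming protein against engulfed bacteria, and Pld4 a lysosomal nuclease. Mpeg1 had levels of 11.97, 10.39, 10.59 and 9.04 on the 344SQ arrays, against 11.94, 11.83, 11.11 and 11.89 on the 393LN arrays and 11.35, 12.04, 11.72 and 11.88 on the 393P arrays. The 344SQ arrays were the most spread, from above most 393P values on replicate 1 to far below all of them on replicate 4. Its difference from 393P was -1.25 ± 0.46, about as large as that of Aif1, and it did not pass the test (adjusted p 0.116). Pld4 was at 7.74 to 9.76 on 344SQ arrays, 9.08 to 10.02 on 393LN arrays and 9.51 to 10.10 on 393P arrays with a difference of -1.09 ± 0.35 from 393P (adjusted p 0.0697). Its brightest 344SQ array was likewise replicate 1 and its dimmest replicate 4. Without 344SQ replicate 1 both passed against 393P, with -1.74 for Mpeg1 (adjusted p 0.0112) and -1.44 for Pld4 (adjusted p 0.0112).

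The adaptors Tyrobp (DAP12) and Fcer1g (the Fc receptor gamma chain) carry the ITAM sequence that relays signals from receptors with no signalling tail of their own. Tyrobp had levels of 11.42, 11.01, 11.29 and 10.79 on the 344SQ arrays, against 11.90, 11.71, 11.32 and 11.96 on the 393LN arrays and 12.16, 12.18, 11.81 and 12.05 on the 393P arrays. All 344SQ values were below all 393P values, and the brightest 344SQ array lay just above the dimmest 393LN array. Tyrobp fell by 1.89-fold against 393P (-0.92 ± 0.17, limma adjusted p 0.005) and by 1.51-fold against 393LN (-0.59 ± 0.17, adjusted p 0.045). The call against 393P held without each array in turn, while that against 393LN held in 3 of the 12 such fits, with adjusted p up to 0.116. The call against 393LN held in 7 of the 11 other settings. It was lost with quantile normalization, a pseudocount of 1, the most variable probe set of each gene or only these lines in the fit (limma adjusted p up to 0.0831).

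Fcer1g, whose promoter printed above holds neither GAGGAA nor TTCCTC, had levels of 11.41, 10.90, 11.04 and 10.74 on the 344SQ arrays, against 11.59, 11.76, 10.84 and 11.69 on the 393LN arrays and 11.73, 12.05, 11.55 and 11.77 on the 393P arrays. The 344SQ values stood below all 393P values and overlapped the 393LN values through the low 393LN replicate 3. It fell 1.68-fold against 393P (-0.75 ± 0.21, limma adjusted p 0.0387), and -0.44 ± 0.21 against 393LN missed the threshold (adjusted p 0.202). The call against 393P was lost without any one of 344SQ replicates 2, 3 and 4 or any one 393P array, and over the 12 fits without 1 array the difference ran from -0.88 to -0.65 and the adjusted p up to 0.108. It was also lost with a pseudocount of 1 (adjusted p 0.0511).

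Trem2 and the IgG receptors did not pass. Trem2, a lipid receptor that pairs with Tyrobp, had levels of 6.99, 6.77, 6.85 and 6.68 on the 344SQ arrays, against 7.37, 7.38, 6.50 and 7.67 on the 393LN arrays and 7.55, 7.09, 7.28 and 7.43 on the 393P arrays. The 344SQ values lay below every 393P value, with a difference of -0.51 ± 0.21 (adjusted p 0.157). With its most variable probe set, a dimmer one, the sign turned to 0.17, also without passing. Trem2 did pass against 393P with only these lines in the fit (limma adjusted p 0.0367). Without 393LN replicate 3 it passed against 393P (adjusted p 0.0260) and against 393LN (adjusted p 0.0178). Fcgr1, the high-affinity IgG receptor, was at 7.94 to 9.62 on 344SQ arrays, 9.11 to 10.16 on 393LN arrays and 9.32 to 10.22 on 393P arrays, with a difference of -0.99 ± 0.33 from 393P (adjusted p 0.0802). With the actin ratio as a covariate it was -1.08 and passed.

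Fcgr1 is the member with a call on another probe set. Its second probe set, dimmer on average, passed in both comparisons, with -0.82 against 393P (limma adjusted p 0.00941 over 34945 probe sets) and -0.62 against 393LN (adjusted p 0.0377). Over all members, 13 had more than 1 probe set and 24 other probe sets were measured. Of these 24, the difference had the sign of the probe set used for 21 against 393P and for 19 against 393LN, and the second one of Fcgr1 alone passed. Fcgr3, the low-affinity activating IgG receptor, was at 11.66 to 12.12 on 344SQ arrays, 11.51 to 12.38 on 393LN arrays and 11.96 to 12.64 on 393P arrays and its difference from 393P was -0.52 ± 0.20 (adjusted p 0.143). Fcgr2b, the inhibitory IgG receptor, was at 10.90 to 11.98 on 344SQ arrays, 11.12 to 11.88 on 393LN arrays and 11.39 to 12.03 on 393P arrays with an interval of -0.68 to 0.30. Whether activating and inhibitory receptors differed from each other was not tested.

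Clec7a had the largest difference of all 32 genes against 393P. It encodes dectin-1, a receptor for fungal beta-glucan that signals through SYK. Its levels were 11.43, 9.69, 9.24 and 9.06 on the 344SQ arrays, against 12.08, 11.93, 10.48 and 11.35 on the 393LN arrays and 10.98, 12.38, 11.91 and 11.83 on the 393P arrays. Replicate 1 of 344SQ lay within the range of both other lines, while the other 344SQ arrays lay below every other value. Clec7a fell 3.78-fold against 393P (-1.92 ± 0.51, limma adjusted p 0.0314), and missed the threshold against 393LN (-1.60 ± 0.51, adjusted p 0.0646). The call against 393P was lost without any one of replicates 2, 3 and 4 of either line, and over the 12 fits without 1 array the difference ran from -2.44 to -1.66 and the adjusted p up to 0.0911. It was also lost with only these lines in the fit (adjusted p 0.0512). Without 344SQ replicate 1 Clec7a also passed against 393LN (-2.13, adjusted p 0.00913).

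Clec4n, the mannose-binding receptor dectin-2, which pairs with Fcer1g, had levels of 10.47, 10.41, 10.49 and 9.25 on the 344SQ arrays, against 11.23, 10.63, 10.38 and 11.14 on the 393LN arrays and 10.79, 11.39, 11.14 and 10.87 on the 393P arrays. All 344SQ values were below all 393P values, and 344SQ replicate 4 stood apart from the 3 others, which were close together. The difference was -0.90 ± 0.28 (adjusted p 0.066). Its second probe set gave -0.81 against 393P and did not pass.

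**Figure D2:**
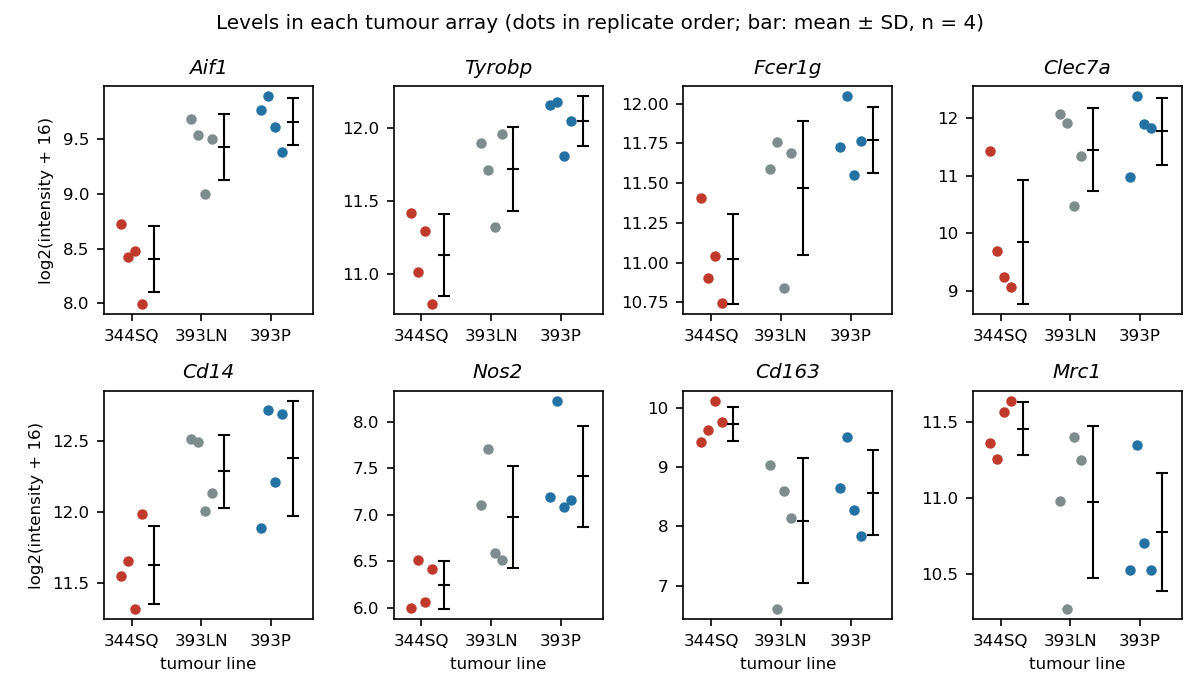
Levels on each array, log2(intensity + 16), of the members on which the comparisons turn, by line, with the mean and SD of 4 arrays. Aif1 and Nos2 values on 344SQ arrays sit below all 393P values, Cd163 values on 344SQ arrays sit above all 393LN values, and Clec7a spans 9.06 to 11.43 on 344SQ arrays.

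C1qa, C1qb and C1qc encode the chains of C1q, which starts the classical complement pathway and which macrophages make. C1qa had levels of 12.81, 12.02, 12.43 and 11.73 on the 344SQ arrays, against 12.95, 12.92, 12.21 and 13.02 on the 393LN arrays and 12.47, 13.30, 12.92 and 12.89 on the 393P arrays. C1qb was at 11.32 to 12.33 on 344SQ arrays, 11.98 to 12.77 on 393LN arrays and 11.66 to 12.88 on 393P arrays, and C1qc at 11.46 to 12.55 on 344SQ arrays, 11.99 to 12.64 on 393LN arrays and 12.18 to 12.82 on 393P arrays. The 3 chains followed the same order of arrays within 344SQ, replicate 1 highest and replicate 4 lowest, and their values overlapped between all lines. Their differences from 393P were -0.65 ± 0.26, -0.61 ± 0.28 and -0.58 ± 0.23, with adjusted p of 0.14, 0.217 and 0.147, and none passed in either comparison. Against 393P, C1qb passed with the actin ratio as a covariate (limma adjusted p 0.0425) and C1qc without 344SQ replicate 1 (adjusted p 0.0442).

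The scavenger and pattern receptors split in direction. Cd14, which presents bacterial lipopolysaccharide to TLR4, had levels of 11.55, 11.66, 11.32 and 11.99 on the 344SQ arrays, against 12.51, 12.49, 12.01 and 12.14 on the 393LN arrays and 11.89, 12.72, 12.21 and 12.69 on the 393P arrays. All 344SQ values were below all 393LN values, and the brightest 344SQ array, replicate 4, was above the dimmest 393P array. Cd14 fell 1.68-fold against 393P (-0.75 ± 0.21, limma adjusted p 0.0385). Against 393LN it did not pass (-0.66 ± 0.21, adjusted p 0.0636). The call against 393P was lost without any one of replicates 1, 2 and 3 of 344SQ or 2, 3 and 4 of 393P, with adjusted p up to 0.109, and with a pseudocount of 1 or only these lines in the fit, with adjusted p up to 0.0655.

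Cd163, the haemoglobin-haptoglobin receptor, was the one member that rose. It had levels of 9.42, 9.64, 10.12 and 9.77 on the 344SQ arrays, against 9.04, 6.61, 8.60 and 8.14 on the 393LN arrays and 8.66, 9.52, 8.28 and 7.84 on the 393P arrays. Every 344SQ value was above every 393LN value, and the second 393LN array lay far below its 3 fellows. Cd163 rose 3.11-fold in 344SQ against 393LN (1.64 ± 0.47, limma adjusted p 0.0429). Without 393LN replicate 2 the difference was 1.14 and did not pass, and the call held in 3 of the 12 fits without 1 array, with adjusted p up to 0.0998. Against 393P, where the second 393P array overlapped the 344SQ values, the difference was 1.16 ± 0.47 (adjusted p 0.149), and it passed without 393LN replicate 2, an array outside that comparison (limma adjusted p 0.0450).

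Mrc1, the mannose receptor CD206, whose promoter above holds 3 matches, had levels of 11.36, 11.26, 11.57 and 11.64 on the 344SQ arrays, against 10.98, 10.27, 11.40 and 11.25 on the 393LN arrays and 10.53, 11.35, 10.70 and 10.53 on the 393P arrays. The 344SQ arrays were high and close together, though 1 array of each other line reached their range. The differences were 0.68 ± 0.24 from 393P and 0.48 ± 0.24 from 393LN, with adjusted p of 0.105 and 0.244. Mrc1 passed against 393P without 393P replicate 2, where the difference was 0.87, or without 393LN replicate 2, an array outside that comparison, with adjusted p down to 0.0422. Msr1, a receptor for modified lipoproteins, was nearly level at 10.11 to 10.47 on 344SQ arrays, 9.93 to 10.57 on 393LN arrays and 10.20 to 10.63 on 393P arrays, with an interval of -0.42 to 0.23 for the difference from 393P. Marco, near the floor, had an interval of -0.49 to 0.62.

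Lysosome, granule and oxidase genes gave differences of the same sign, none of which passed. Cybb, the catalytic subunit of the phagocyte NADPH oxidase, had levels of 10.90, 8.72, 9.54 and 8.46 on the 344SQ arrays, against 11.01, 10.44, 9.74 and 10.70 on the 393LN arrays and 10.49, 11.52, 10.48 and 10.36 on the 393P arrays. Replicate 1 of 344SQ was as high as most 393P arrays and the other 3 were below all of them. The difference from 393P was -1.31 ± 0.48 (adjusted p 0.113), and without 344SQ replicate 1 it was -1.80 and passed (adjusted p 0.0126).

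Lyz2, lysozyme M, was at 11.40 to 12.67 on 344SQ arrays, 12.51 to 13.34 on 393LN arrays and 12.62 to 13.19 on 393P arrays (-0.69 ± 0.27 from 393P, adjusted p 0.145). Ctss, the cathepsin that trims the invariant chain for antigen presentation, was at 12.16 to 13.54 on 344SQ arrays, 12.93 to 13.52 on 393LN arrays and 12.80 to 13.48 on 393P arrays, and its difference of -0.42 ± 0.26 did not pass (adjusted p 0.381). Laptm5, a lysosomal membrane protein of blood cells, was at 10.36 to 11.87 on 344SQ arrays, 10.93 to 11.96 on 393LN arrays and 11.19 to 12.05 on 393P arrays (-0.47 ± 0.32, adjusted p 0.436). These genes overlapped between lines, with the dimmest 344SQ array, replicate 4, below all other arrays in each. Gpnmb, a glycoprotein of lipid-laden macrophages that is also made by other cells, was at 8.18 to 8.90 on 344SQ arrays, 8.46 to 9.34 on 393LN arrays and 8.62 to 9.41 on 393P arrays (-0.46 ± 0.23, adjusted p 0.267). Cd53, a tetraspanin of most leukocytes, was at 10.81 to 11.31 on 344SQ arrays, 10.64 to 11.40 on 393LN arrays and 10.50 to 11.58 on 393P arrays, and its interval of -0.55 to 0.44 was centred near 0.

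Nos2 and Arg1 encode enzymes that compete for arginine, which inducible nitric oxide synthase turns into nitric oxide and arginase into ornithine. Nos2 had levels of 5.996, 6.51, 6.06 and 6.42 on the 344SQ arrays, against 7.10, 7.71, 6.58 and 6.52 on the 393LN arrays and 7.19, 8.22, 7.08 and 7.15 on the 393P arrays. All 344SQ values lay below all values of both other lines, although the nearest 393LN array was barely higher, and 393P replicate 2 stood above its fellows. Nos2 fell 2.24-fold against 393P (-1.17 ± 0.30, limma adjusted p 0.026). The call was lost without 344SQ replicate 1 or 3 or 393P replicate 2, with adjusted p up to 0.0720. The difference from 393LN was -0.73 ± 0.30 and missed the threshold (adjusted p 0.141).

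Arg1 had levels of 12.55, 10.93, 11.35 and 11.25 on the 344SQ arrays, against 12.24, 11.11, 10.61 and 12.11 on the 393LN arrays and 10.41, 12.54, 11.51 and 12.10 on the 393P arrays. Each line held arrays more than 1 log2 unit apart, and the lines overlapped fully. The difference was -0.12 ± 0.50 from 393P, with an interval of -1.21 to 0.97, and the interval is too wide to bound it closely on either side. Whether Nos2 and Arg1 differed from each other in response was not tested.

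Counting genes whose values did not overlap gives a view that does not use the shared spread. All 344SQ values were below all 393P values for 7 of the 32 genes, Csf1r, Aif1, Tyrobp, Fcer1g, Trem2, Clec4n and Nos2, and above for 0. Among all genes tested, 8.62% were so below, 8.12% were above and 16.7% did not overlap in either direction. Against 393LN, the 344SQ values were all below for 3 genes, Aif1, Cd14 and Nos2, and all above for Cd163, where 10.7% and 6.72% of all genes stood so. Between 393LN and 393P all 32 genes overlapped, against 10.3% of all genes that did not, 6.69% with 393LN above and 3.57% with 393LN below.

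**Figure D3:**
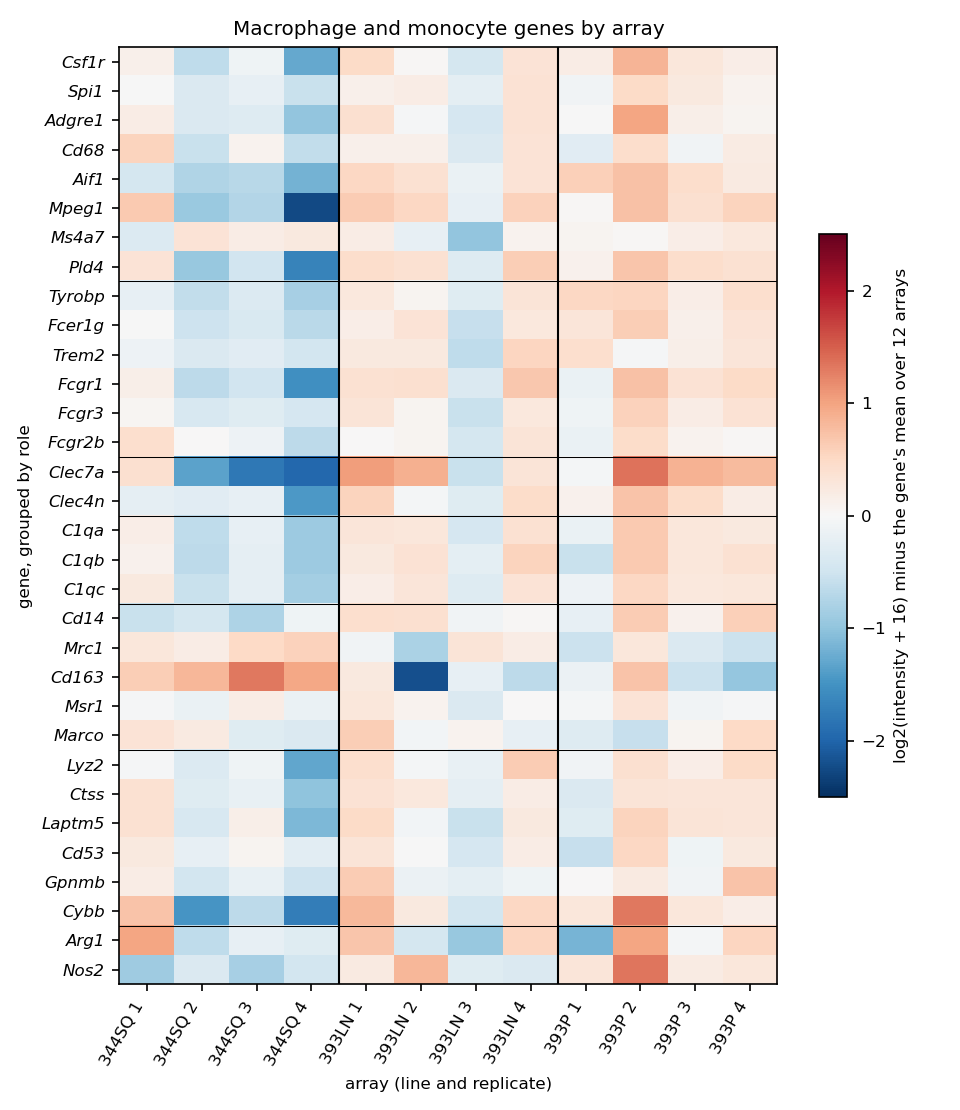
Level of each of the 32 genes on each of the 12 arrays minus that gene's mean over the arrays, in log2 units, with genes in order of role and arrays grouped as 344SQ, 393LN and 393P. The columns of 344SQ replicate 4 and 393LN replicate 3 are low for most genes, and the column of 393P replicate 2 is high.

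Arrays of the same line differed together over these genes. The mean over the 32 genes was 10.67, 10.10, 10.28 and 9.75 on the 344SQ arrays, against 10.90, 10.60, 10.17 and 10.80 on the 393LN arrays and 10.45, 11.11, 10.70 and 10.79 on the 393P arrays. The means over arrays were 10.20 ± 0.38 for 344SQ, 10.62 ± 0.32 for 393LN and 10.76 ± 0.27 for 393P (SD, n = 4 each). The 344SQ array with the highest mean, replicate 1, lay above the lowest 393LN and the lowest 393P array, so the 3 lines overlapped on this measure.

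Within 344SQ, 26 of the 32 genes were lowest on replicate 4 and 25 were highest on replicate 1. Within 393LN, 28 were lowest on replicate 3. Within 393P, 27 were highest on replicate 2 and 20 were lowest on replicate 1. The genes with the largest SD were most often so in 344SQ, 16 of 32, against 11 in 393LN and 5 in 393P. Within 344SQ the SD was 0.30 for Aif1, 0.28 for Tyrobp and 0.28 for Cd14, against 1.20 for Mpeg1, 1.08 for Clec7a and 1.10 for Cybb. The ratio of the 3′ to the 5′ actin probe sets, which reflects how whole the RNA was, stood at 1.47 on 393P replicate 1 and between 1.04 and 1.19 elsewhere. With this ratio as a covariate 9 of the 32 genes fell against 393P, the 6 above with Spi1, Fcgr1 and C1qb, and 3 fell and 1 rose against 393LN, with Cd14 the one added.

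**Figure D4:**
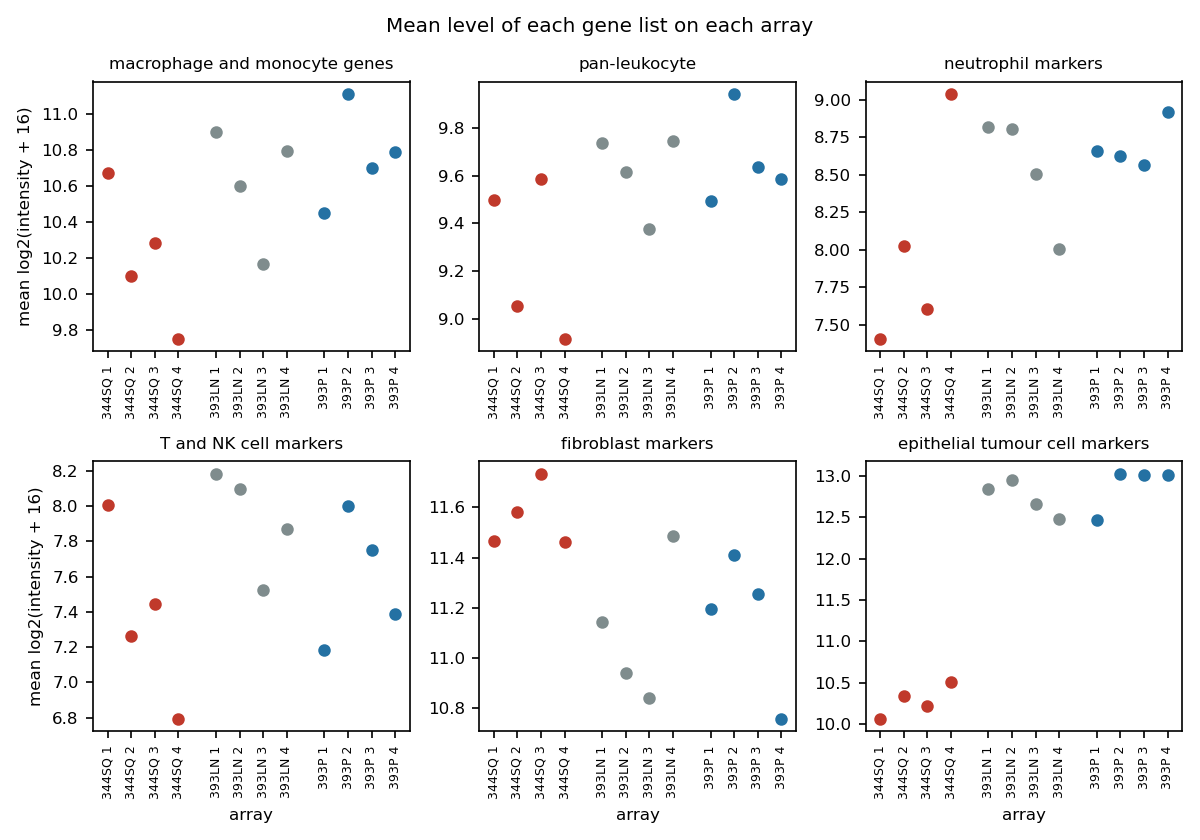
Mean level over the 32 genes on each of the 12 arrays, log2(intensity + 16), by line, and the same mean for the pan-leukocyte list and lists of neutrophil, T and NK cell, fibroblast and epithelial markers, each on an axis of its own. The 344SQ arrays run from 9.75 to 10.67 for the macrophage and monocyte genes, and overlap the 393LN range of 10.17 to 10.90 and the 393P range of 10.45 to 11.11.

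Genes that feed or serve these cells were set beside the shares of all genes, of which 5.62% fell against 393P and 6.92% against 393LN. Of all 18193 genes, 4292 had an unadjusted limma p under 0.05 against 393P and 4670 against 393LN. Of 14 measured genes for CSF1 receptor ligands, partners and monocyte recruitment, 2 fell and 0 rose in 344SQ against 393P, with a median of -0.28. They were Csf2, the gene of the growth factor GM-CSF (-1.08 ± 0.27, limma adjusted p 0.0236), and Csf2ra, a chain of its receptor (-0.87 ± 0.23, adjusted p 0.0323). The ligands of CSF1R did not pass, with -0.23 for Csf1 and 0.30 for Il34, and neither did the monocyte attractant Ccl2 (-0.05) nor its receptor Ccr2 (-0.95). Against 393LN 1 of the 14 fell, Cx3cl1, which encodes the membrane-bound chemokine fractalkine (-1.21 ± 0.31, adjusted p 0.0271). With each array left out in turn, an alternative chosen after seeing the data, the call held in 6 of 12 fits for Csf2, 7 for Csf2ra and 7 for Cx3cl1, with adjusted p up to 0.0935.

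Of 13 measured genes of ITAM and Fc receptor signalling, 1 fell against 393P and 2 fell against 393LN. Plcg2, the phospholipase that acts below SYK and BTK, fell in both, with -1.55 ± 0.26 against 393P (limma adjusted p 0.00253) and -1.89 ± 0.26 against 393LN (adjusted p 0.000787). Syk, the kinase that docks on ITAM tails, fell against 393LN (-0.45 ± 0.11, adjusted p 0.0204). The calls of Plcg2 held in all 12 fits without 1 array and that of Syk in 9. Both are also made by cells other than macrophages.

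Of the 4 measured partners of Cybb in the NADPH oxidase, 2 fell against 393P and 0 against 393LN, though Cybb itself missed the threshold. They were Cyba, the membrane subunit p22phox (-0.40 ± 0.11, limma adjusted p 0.0321), and Ncf4, the cytosolic subunit p40phox (-0.65 ± 0.18, adjusted p 0.0371). In both, all 344SQ values were below all 393P values, and each call held in 5 of the 12 fits without 1 array.

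Macrophage states are read from genes of inflammatory and of alternative activation. Of 16 genes of inflammatory activation, 1 fell against 393P, the cytokine gene Il1b (-1.34 ± 0.27, limma adjusted p 0.00837), and 1 rose against 393LN, Il12b, which encodes the p40 chain of IL-12 (0.41 ± 0.10, adjusted p 0.0205). Of 12 genes of alternative activation, 1 fell against 393P, the lectin gene Mgl2 (-1.42 ± 0.41, adjusted p 0.0478), and 0 passed against 393LN. The medians of the 12 were -0.03 and 0.00, near those of all genes, though single differences from 393P ran from -1.60 to 1.36. Those of the 16 inflammatory genes had medians of -0.15 against 393P and 0.07 against 393LN. Which cells of the tumour made these RNAs was not tested. Without 1 array the call of Il1b held in all 12 fits, that of Il12b in 9 and that of Mgl2 in 2, with adjusted p up to 0.129.

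Of 15 lysosomal and lipid-handling genes, Lipa, the lysosomal acid lipase, rose in 344SQ against 393P (1.16 ± 0.23, limma adjusted p 0.00716), and the protease gene Ctsd fell (-0.46 ± 0.12, adjusted p 0.034). Ctsd also fell against 393LN (-0.47 ± 0.12, adjusted p 0.0315). The call of Lipa held in all 12 fits without 1 array, and each of those of Ctsd in 6. Of 7 transcription factor genes of the lineage, 0 passed the limma test in either 344SQ comparison. At an unadjusted p under 0.05 there were 1 against 393P and 2 against 393LN, where 4292 and 4670 of all 18193 genes stood so. In 393LN against 393P, 0 genes of these 7 lists passed.

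Of 15 pan-leukocyte genes, 13 had negative differences in 344SQ against 393P and 15 against 393LN, with medians of -0.42 and -0.39. Of these 1 fell against 393P, Cd52 (-0.99 ± 0.24, limma adjusted p 0.0195), a call lost without 344SQ replicate 2 (adjusted p 0.0603), and 0 fell against 393LN. Of all 18193 genes, 4292 had an unadjusted p under 0.05 against 393P and 4670 against 393LN, and of the 15 there were 8 and 3. Their array means ran from 8.92 to 9.59 in 344SQ, 9.38 to 9.75 in 393LN and 9.49 to 9.94 in 393P. Ptprc, which encodes CD45, did not pass (-0.64 ± 0.27, adjusted p 0.171). The part of the leukocyte share in the results above was not tested.

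Neutrophils share Fcer1g, Clec7a, Cd14 and the oxidase genes with macrophages. Of 13 neutrophil markers, 2 fell in 344SQ against both other lines, Padi4 and Ltf, and 0 rose. Against 393P 9 differences were negative and 4 positive (median -0.23), and against 393LN 11 and 2 (median -0.19). S100a8 did not pass, at 9.07 to 12.91 on 344SQ arrays, 9.61 to 11.77 on 393LN arrays and 10.85 to 12.82 on 393P arrays. Padi4 had levels of 5.40, 6.32, 6.35 and 10.04 on 344SQ arrays, against 9.82 to 10.98 on 393LN arrays and 10.26 to 10.58 on 393P arrays, so 344SQ replicate 4 lay within the 393LN range. Its difference from 393P was -3.36 ± 0.75 (limma adjusted p 0.0137), and -4.36 without that array. For Ltf it was -1.81 ± 0.49 (adjusted p 0.0353), a call that held in 6 of the 12 fits without 1 array. Against 393LN Ltf differed by -2.11, and by -1.52 without 393LN replicate 1. The array means of the 13 ran from 7.41 to 9.04 in 344SQ, 8.003 to 8.82 in 393LN and 8.56 to 8.91 in 393P. The highest 344SQ value was on replicate 4, the array that was lowest for the macrophage and monocyte genes. Their part in the results was not tested.

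Dendritic cells share Csf1r, Clec7a, Clec4n and Ctss. Of 12 dendritic cell and MHC class II markers, 0 passed the limma test, and the medians were -0.40 and -0.29. At an unadjusted p under 0.05 there were 3 in each 344SQ comparison, against 4292 and 4670 of all 18193 genes. Mast cells share Fcer1g and Tyrobp. Of 10 mast cell markers, 2 rose in 344SQ against both other lines, Mcpt1 and Mcpt2, and 1 fell against 393P, Hdc (-0.89 ± 0.24, adjusted p 0.0347), whose call held in 6 of the 12 fits without 1 array. The mast cell protease gene Mcpt2 differed by 2.70 ± 0.44 from 393P (adjusted p 0.00208), opposite in sign to both adaptors, and the part of mast cells was not tested. Of 14 T and NK cell markers, 11 had negative differences from 393P (median -0.13) and 12 from 393LN (median -0.27, lowest -2.56), while 1, Cd2, rose against 393P (0.94 ± 0.22, adjusted p 0.0162). Of 9 B and plasma cell, 10 endothelial and 2 erythroid markers, 0 passed the limma test in any comparison, and 0 had an unadjusted p under 0.05 in the 344SQ comparisons.

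All 12 fibroblast markers had positive differences in both 344SQ comparisons, and 0 passed the limma test. Of all 18193 genes, 4292 and 4670 had an unadjusted p under 0.05 in these comparisons, and of the 12 markers 5 and 6. Their array means were 11.46 to 11.73 in 344SQ, 10.84 to 11.48 in 393LN and 10.76 to 11.41 in 393P. The positive differences of Mrc1 and Cd163 ran the same way, and the part of the fibroblast share was not tested. Of 12 epithelial markers, 7 fell in 344SQ against both lines, with the smallest p for Esrp1, Rab25 and Cldn4, while Cdh1 and Krt8, which define epithelial tumour cells, had means of 13.51 and 13.98 in 344SQ, 13.33 and 13.81 in 393LN and 13.39 and 13.98 in 393P. No marker gene of any list lay at the floor on all 12 arrays (0).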

How the data were processed

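RNA of 12 tumour samples (3 lines, 4 arrays each) was measured on Affymetrix arrays. The values used are the intensities the authors deposited, 1 per probe set; which software made them is not given in the sources, and 100% of values are 2 to a power with 2 decimals (tolerance 1e-08). The median log2 value of an array was 7.19 to 7.29, so no scaling was added. Of 45101 probe sets, 34945 with 1 gene symbol were kept, 932 with several, 9160 with none and 64 controls were left out. Per gene the probe set with the highest mean was used, with no filter on dim genes. The number of arrays limits the precision.

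log2(intensity + 16) was fitted with a mean per line over the 12 arrays in limma 3.58.1 (lmFit, eBayes; R 4.3.3; 9 residual degrees of freedom), two-sided, with Benjamini-Hochberg adjustment over 18193 genes. Every adjusted p is limma's. Promoter letters were searched in RefSeq windows of 300 bases. Every measured member is named, and of each other list up to 3 genes with an adjusted p under 0.05 and the smallest p. The members and lists were chosen with earlier results of these data known. Alternatives covered scaling, pseudocount, dim genes, choice of probe set, spread, actin ratio and each array left out; leaving out arrays for genes of the other lists was chosen after seeing the data. No level is given for Ly6c2, though its promoter is counted. Within a line, arrays correlated at 0.971 to 0.991.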

Additional observations from a re-analysis of the deposited data

Results flagged for a closer look

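Among the 96 sets of 4 arrays (32 genes in 3 lines) 9 held 1 array far from its 3 fellows, with a gap past Dixon's critical value; chance alone gives about 1 in 20 sets. In 344SQ, Clec4n was at 9.25 on replicate 4, with the nearest array at 10.41. In 393LN, replicate 3 was low for Mpeg1, at 11.11 with the nearest at 11.83, and for C1qa, at 12.21 with the nearest at 12.92. Gpnmb was high on 393LN replicate 1, at 9.34 with the nearest at 8.59. In 393P, replicate 2 was high for Adgre1 (10.99, nearest 10.15), Msr1 (10.63, nearest 10.25), Cybb (11.52, nearest 10.49) and Nos2 (8.22, nearest 7.19). Ctss was low on 393P replicate 1, at 12.80 with the nearest at 13.46. The genes of a line share their arrays, so these are not 9 separate events.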

How the results depend on the processing

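Aif1 in both 344SQ comparisons and Tyrobp against 393P kept their call in all 11 other settings and in all 12 fits without 1 array. The count of members called in 344SQ against 393P ran from 2 to 9 without 1 array and from 4 to 9 over the other settings: 4 with a pseudocount of 1, 5 with only these lines in the fit, 7 with the mean of a gene's probe sets, 8 without the dimmest 25% or 50% of genes and 9 with the actin ratio as a covariate. In 344SQ against 393LN it was 1 with a pseudocount of 1 and with only these lines in the fit, 5 without the dimmest 25% or 50% of genes, and 1 to 7 without 1 array; the cause was not tested. The filters tested 13644 and 9096 genes, with 31 and 29 members; Marco, Trem2 and Nos2, the dimmest members, were not in the smaller set. In 393LN against 393P it was 0 throughout. The medians ran from -0.75 to -0.46, -0.63 to -0.30 and -0.25 to 0.04 without 1 array, in the order of these comparisons; the last was positive without 393LN replicate 3 or 393P replicate 2. Of 732 values per comparison for single members, 671, 676 and 676 kept their sign and side of the threshold. A call was lost in 26, 24 and 0 and gained in 19, 16 and 0. The sign changed with no call in either fit in 16, 16 and 56, and with a call in 0. Over all genes, 1907 were called in 344SQ against 393P and 1259 without 393P replicate 3, 1984 in 344SQ against 393LN and 1167 without 344SQ replicate 2, and 446 in 393LN against 393P, with 174 when only these lines were fitted and 156 without 393P replicate 3. With quantile normalization 419 genes were called there, 246 higher and 173 lower, against 319 higher and 127 lower of the 446. Of 41 calls on genes of the other lists, 26 held in all 12 fits without 1 array. No paired analysis was possible because the labels give no replicate numbers; the numbers used here follow the order of the samples.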
